A study of Homo sapiens with 6 samples.

Results

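The genes described here are NFE2 and 9 other genes named for the megakaryocyte and red cell lineages, 10 of the 35052 genes for which reads could be summed. They are the transcription factor genes NFE2, GATA1, GATA2, TAL1, LMO2, GFI1B and KLF1, the integrin gene ITGA2B and the surface receptor genes TFRC and EPOR. They were taken by name as regulators or surface markers of these lineages, and all 10 were in the deposited tables. The cells were EoL-1, a human line established from an eosinophilic leukaemia. One group had ATF3, a stress-induced transcription factor gene of the basic leucine zipper family, knocked out with CRISPR/Cas9 (3 libraries), and the other was wild type (3 libraries). The sample labels call the first group a knockout, while the series' design text calls it a knockdown. They do not say whether the knockout cells were a single clone or a pool, or whether replicates were separate cultures, and each p-value therefore speaks of the scatter among these libraries, which may be technical.

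NFE2 encodes the larger subunit of NF-E2, a basic leucine zipper factor that binds DNA as a dimer with a small Maf protein and that drives the last steps of platelet formation and globin transcription. GATA1 and GATA2 bind the GATA motif together with a complex built of TAL1, LDB1 and LMO2. In red cell and megakaryocyte development GATA1 takes the place of GATA2, KLF1 directs the red cell programme, and GFI1B represses genes of other lineages. ITGA2B (CD41), TFRC and EPOR are surface proteins by which megakaryocytes and red cell precursors are recognised. Eosinophils and mast cells also use GATA1 and GATA2.

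The sequences that these genes share or differ in are given first. All 5 annotated NFE2 transcripts begin translation in the same 114-base exon (GRCh38 chr12:54295135-54295248, minus strand), and 4 of them encode the same 1119-base reading frame, so the choice between them changes the start of the RNA and not the protein. It is shown with the start codon in capitals.
NFE2 first coding exon: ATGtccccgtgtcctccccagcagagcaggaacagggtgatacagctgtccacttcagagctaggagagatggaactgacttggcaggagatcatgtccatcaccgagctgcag
The promoter windows, taken from RefSeq (GRCh38.p14), hold the 250 bases before the start site. They were found for 8 of the 10 genes, 11 windows in all, and NFE2 and LMO2 had no entry. The GATA motif was searched on both strands as AGATAA and AGATAG, and with another first base as TGATAA and TGATAG, and 5 of the 11 windows held it, against 22.3% of 35116 promoter windows of the same length. The window of ITGA2B is shown because its mRNA rose in the knockout libraries. Those of KLF1, TAL1 and EPOR are shown because they hold the same motif and their mRNA was near 0 or did not pass the test. Capitals mark the motif, which reads as its reverse complement where it lies on the opposite strand.
ITGA2B promoter (chr17:44389650-44389899, minus strand): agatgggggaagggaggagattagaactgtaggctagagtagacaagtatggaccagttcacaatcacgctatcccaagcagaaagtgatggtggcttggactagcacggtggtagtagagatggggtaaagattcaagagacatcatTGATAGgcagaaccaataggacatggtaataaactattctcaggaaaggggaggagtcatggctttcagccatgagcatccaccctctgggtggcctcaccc
KLF1 promoter (chr19:12887202-12887451, minus strand): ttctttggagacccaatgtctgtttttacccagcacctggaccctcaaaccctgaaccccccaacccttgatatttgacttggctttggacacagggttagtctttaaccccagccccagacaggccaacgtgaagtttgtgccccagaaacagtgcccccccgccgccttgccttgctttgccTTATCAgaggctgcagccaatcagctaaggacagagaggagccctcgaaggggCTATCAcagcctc
TAL1 promoter (chr1:47232336-47232585, minus strand): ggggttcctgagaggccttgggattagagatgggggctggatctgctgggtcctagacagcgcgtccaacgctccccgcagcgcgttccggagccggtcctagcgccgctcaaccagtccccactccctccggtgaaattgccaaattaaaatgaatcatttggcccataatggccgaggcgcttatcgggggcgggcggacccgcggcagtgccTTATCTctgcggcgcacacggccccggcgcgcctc
EPOR promoter (chr19:11384315-11384564, minus strand): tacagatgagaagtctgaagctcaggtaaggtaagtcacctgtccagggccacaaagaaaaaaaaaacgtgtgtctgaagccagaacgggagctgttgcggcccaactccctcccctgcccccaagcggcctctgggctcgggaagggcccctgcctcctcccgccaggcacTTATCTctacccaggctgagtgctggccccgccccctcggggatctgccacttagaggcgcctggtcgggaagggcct
The motif lies 102 to 97 bases before the start in ITGA2B, 66 to 61 and 13 to 8 bases before it in KLF1, 35 to 30 in TAL1 and 78 to 73 in EPOR. A GFI1B window (chr9:132978444-132978693, plus strand) held it 116 to 111 bases before the start. The AP-1 motif TGACTCA, whose letters also form the core of the NF-E2 site, was in 0 of the 11 windows and in 4.20% of all windows. The CRE motif TGACGTCA was in 0 of the 11 and in 1.65% of all windows. These matches describe the letters in these windows and nothing about binding.

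The libraries held 26766103 to 30117281 estimated reads. ATF3 had 146, 229 and 132 reads in the knockout libraries, against 634, 462 and 632 in the wild-type libraries. Its log2 fold change was -1.75 (SE 0.25, adjusted p = 0.0098), so its mRNA was lower and still present in the libraries labelled knockout. The first principal component (42.1% of the variance) separated the groups, and wild-type replicate 2 stood nearest to the knockout libraries. Of 13131 genes tested with edgeR, 1494 were higher and 1276 lower at a Benjamini-Hochberg adjusted p under 0.05, and the median log2 fold change was 0.01.

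Of the 10 genes, 7 were measured well enough to be tested, and 2 of these rose in the knockout libraries, NFE2 and ITGA2B. No member fell. Genes called higher made up 11.4% of all genes tested and genes called in either direction 21.1%, and nothing particular to these genes is read from the count. NFE2 was the large change at a well-measured level, ITGA2B rose at a very low level, and GATA2 spread so widely that the groups overlapped. LMO2, TFRC, EPOR and GFI1B did not pass the test, and TAL1, KLF1 and GATA1 had between 0 and 4 reads in any library. The median log2 fold change of the 7 tested genes was 0.20.

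**Figure D1:**
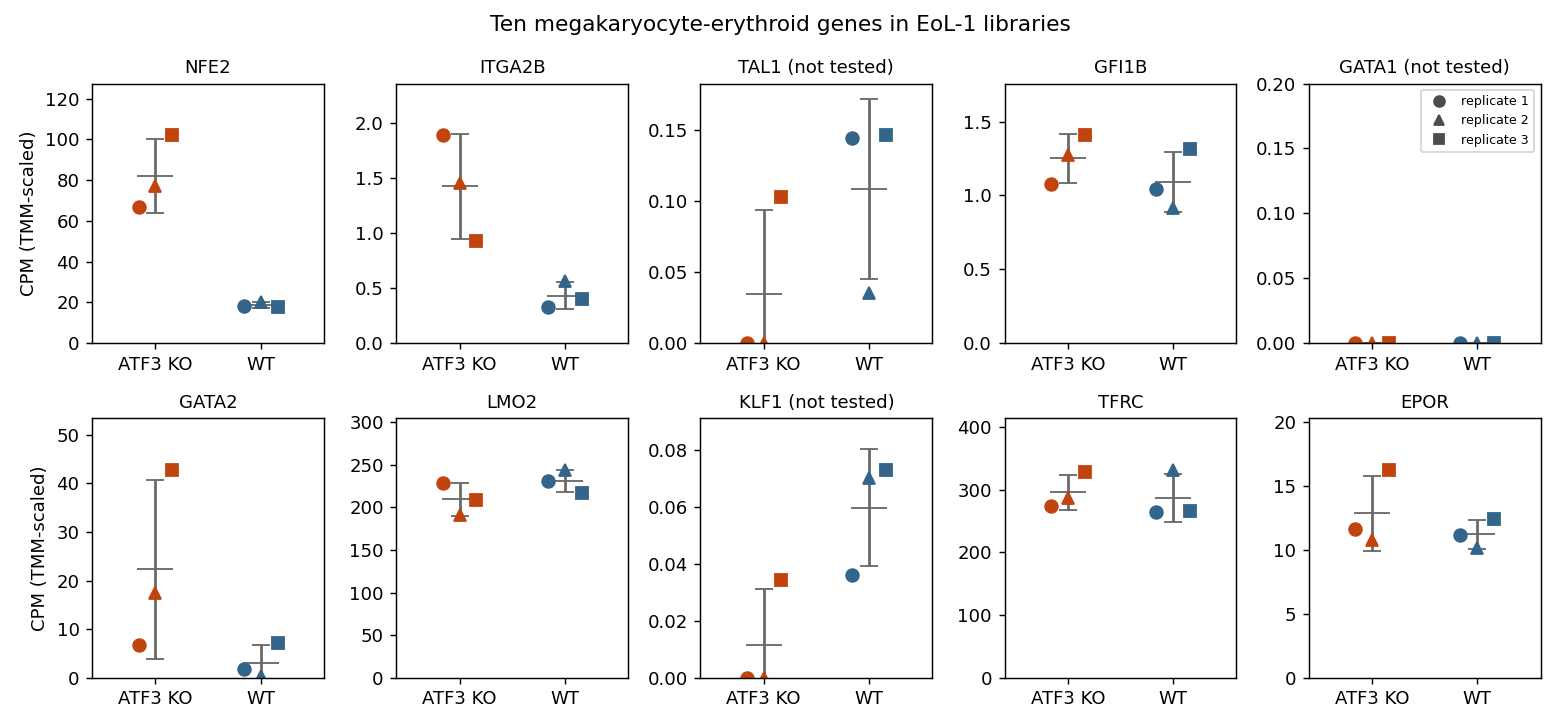
Reads scaled to library size (CPM, TMM-scaled, linear axes from 0) of the 10 genes in each library, knockout on the left and wild type on the right of each panel, with the mean and SD (n = 3 each). NFE2 and ITGA2B are higher in all 3 knockout libraries than in any wild-type library, as are 22.2% of all genes tested. GATA2 spreads from 6.65 to 42.7 CPM among knockout libraries, and GATA1 is at 0 throughout.

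NFE2 mRNA was 4.40-fold higher in the knockout cells. NFE2 (ENSG00000123405.13, GRCh38 chr12:54292111-54301121, minus strand) had 1733, 2127 and 2975 reads in the knockout libraries, against 502, 571 and 486 in the wild-type libraries. The lowest knockout library held more than any wild-type library, which by CPM was so for 22.2% of all genes tested. The wild-type libraries lay close together while the knockout libraries spread more widely. Scaled to library size (CPM) this was 82.0 ± 18.1 in knockout and 18.6 ± 1.26 in wild-type libraries (SD, n = 3 each). The log2 fold change was 2.14 (SE 0.16, 95% interval 1.75 to 2.52, adjusted p = 0.00731 by edgeR's quasi-likelihood test), the fourth smallest p of the 13131 genes. It was among 37 genes called higher with a log2 fold change at or above its own, and only 4 of these, NFE2 included, reached its mean CPM in knockout libraries. Permuting the 6 log2 CPM values between the groups gave an exact p of 0.1 (two-sided), the smallest that 3 against 3 libraries allow. Per length, NFE2 stood at 51.7 ± 10.1 TPM (the authors' length-scaled unit) in knockout libraries and 11.3 ± 0.777 TPM in wild-type libraries, which is above 83.7% and 49.6% of the genes tested in those groups. These are bulk libraries, in which more cells expressing a gene and more of its mRNA per cell cannot be told apart. The call was lost without wild-type replicate 1, where the log2 fold change was 2.12 and the adjusted p 0.0503 and no gene at all was called. Without wild-type replicate 2, the library nearest the knockout group, it was 2.19 (adjusted p = 0.0101).

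The summed TPM of eosinophil markers and of neutrophil and monocyte markers was higher in every knockout library than in any wild-type library. The sums of red cell, megakaryocyte, and mast cell and basophil markers overlapped between the groups. The summed TPM of the 8 eosinophil markers was 219 to 352 in knockout libraries and 66.2 to 93.1 in wild-type libraries, with 2 of the 2 tested genes higher and CLC and IL5RA at 0 in every library. Nearly all of that sum came from RNASE2, at 176 to 294 TPM in knockout and 53.4 to 73.7 TPM in wild-type libraries, and RNASE3, at 42.5 to 57.9 TPM in knockout and 12.4 to 19.3 TPM in wild-type libraries. EPX, PRG2, CCR3 and SIGLEC8 had at most 1.36 TPM in any library, so the sum is that of 2 ribonuclease genes rather than of the marker class. That of the 8 neutrophil and monocyte markers was 314 to 618 in knockout libraries and 70.2 to 226 in wild-type libraries, with 3 of the 4 tested genes higher and ELANE, AZU1 and PRTN3 at 0. Of all genes tested, 11.4% were called higher, and so few tested markers give no reading for a class. The 9 erythroid markers summed to 0.524 to 0.884 TPM in knockout and 0.647 to 1.03 TPM in wild-type libraries, and the 8 megakaryocyte markers to 0.008 to 0.103 TPM in knockout and 0.009 to 0.026 TPM in wild-type libraries. The 7 mast cell and basophil markers summed to 0.210 to 2.04 TPM in knockout libraries and 0.436 to 1.18 TPM in wild-type libraries, with HDC and CPA3 at 0. The defining markers of red cells (HBA1, HBB, ALAS2 and AHSP) and of megakaryocytes (ITGB3, GP1BA, GP9, PF4 and PPBP) had 0 reads in every library. The part of the ribonuclease genes and of the neutrophil and monocyte markers in the NFE2 result was not tested.

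The NFE2 reads came almost wholly from a single transcript in both groups. NFE2-202 (ENST00000435572, 3 exons) starts at the distal first exon (5′ end at chr12:54301121 in the annotation, which holds an earlier version of this transcript than the deposited tables) and held 1617, 2057 and 2776 reads in knockout libraries, against 477, 523 and 443 in wild-type libraries. That is 94.4% ± 1.97 of the NFE2 reads in knockout and 92.6% ± 2.06 in wild-type libraries (SD, n = 3 each; exact permutation p = 0.3). The shares of the groups overlapped. NFE2-204 (ENST00000553070), which uses the same distal exon, had 68.8, 54.6 and 173.7 reads in knockout libraries, against 22.3, 39.6 and 42.9 in wild-type libraries. Together both transcripts of the distal start held 98.6% ± 1.13 of the reads in knockout and 99.3% ± 0.705 in wild-type libraries (exact permutation p = 0.4). NFE2-201 (ENST00000312156), which starts in an exon close to the coding region, had 43.2 reads in knockout replicate 1 and 0 in the other 5 libraries.

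Tested transcript by transcript, the calls depended on the tool. edgeR called 0 of 52307 transcripts at an adjusted p under 0.05 (0.00%), with 8091 at an unadjusted p under 0.05, limma-voom also called 0, and DESeq2 called 4405. NFE2-202 had a log2 fold change of 2.18 (SE 0.17, adjusted p = 0.058 by edgeR, 0.0692 by limma-voom and 3.95e-26 by DESeq2). NFE2-204 had 1.502 (SE 0.52, adjusted p = 0.259 by edgeR). Salmon divides reads between transcripts that share exons, so the gene total is the firmer of the values.

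**Figure D2:**
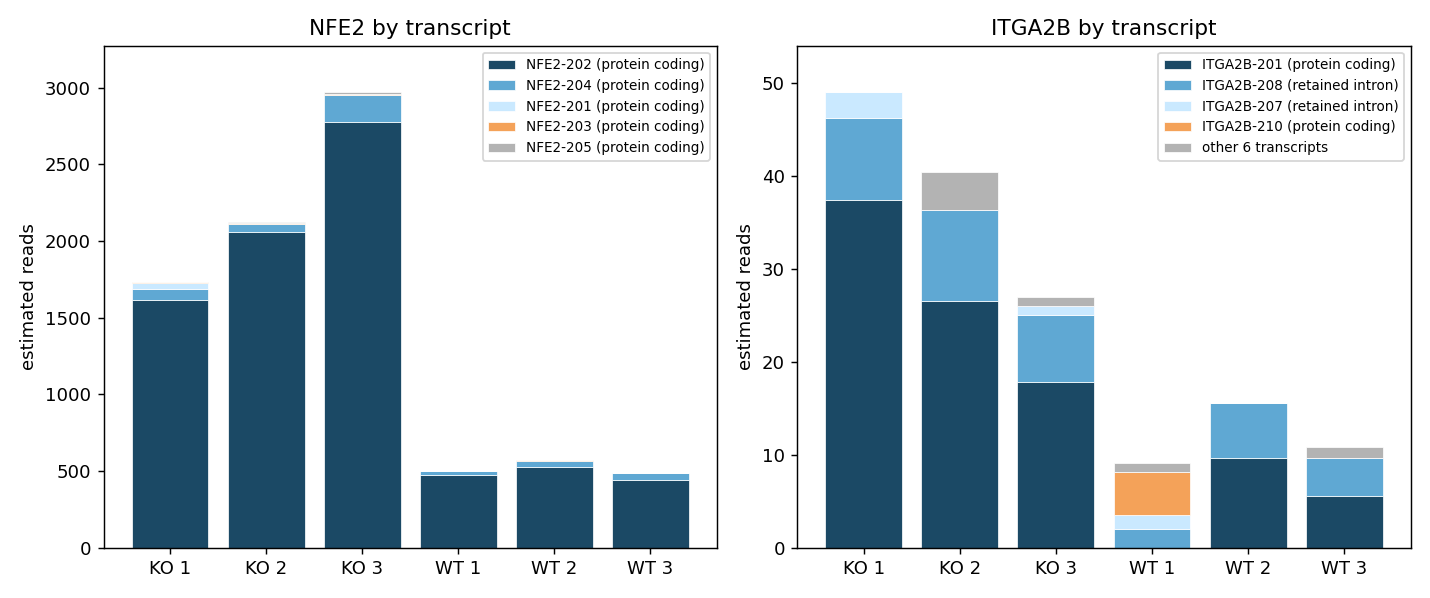
Estimated reads of NFE2 and of ITGA2B in each library, stacked by annotated transcript, knockout libraries on the left of each panel. NFE2-202 makes up 94.4% of the NFE2 reads in knockout and 92.6% in wild-type libraries, and ITGA2B rests on 27 to 49 reads in knockout and 9.1 to 15.6 reads in wild-type libraries.

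Among the partners and relatives of NFE2, NFE2L1 was called lower. Of the 8 genes of its small Maf partners, its relatives of the cap-n-collar family and the BACH repressors that bind the same sites, 7 were tested, 0 were higher and 1 was lower, with a median log2 fold change of -0.23. With 11.4% of all genes called higher and 9.72% lower, so few genes give no reading for the list. NFE2L1, a broadly expressed relative that controls proteasome genes, had 120, 119 and 131 CPM in knockout libraries, against 196, 165 and 196 CPM in wild-type libraries, and fell by 0.59 on the log2 scale (SE 0.09, adjusted p = 0.00997). The small Maf genes MAFG, MAFK and MAFF had log2 fold changes of 0.16, -0.07 and -0.66, with adjusted p of 0.509, 0.455 and 0.193. BACH1, a repressor at NF-E2 sites, had 48.7, 42.8 and 37.8 CPM in knockout libraries, against 54.8, 52.6 and 55.9 CPM in wild-type libraries. Its groups did not overlap, as in 43.5% of all genes tested (21.4% with knockout the lower), and its adjusted p was 0.0531. NFE2L2, the antioxidant regulator NRF2, had a log2 fold change of -0.23 (adjusted p = 0.0786).

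GATA2, the GATA factor of blood stem cells and mast cells, was the member with the largest fold change and the widest spread. GATA2 (chr3:128479427-128493185, minus strand) had 173, 481 and 1246 reads in the knockout libraries, against 49, 7 and 198 in the wild-type libraries. Knockout replicate 3 was the highest library and wild-type replicate 2 the lowest, and the groups overlapped, since wild-type replicate 3 lay above knockout replicate 1. The means were 22.3 ± 18.5 CPM in knockout and 3.08 ± 3.67 CPM in wild-type libraries (SD, n = 3 each). The log2 fold change was 2.86 (SE 1.05, 95% interval 0.38 to 5.34) with an adjusted p of 0.0941. It lay between 1.97 and 4.47 when a library was left out, with adjusted p of 0.0712 to 0.255. The filter for testing asks for about 10 reads in at least 3 libraries, and wild-type replicate 2 (7 reads) did not reach this. The wild-type libraries alone would therefore not have passed GATA2 for testing. Replicate 3 held the highest GATA2 count of its group in both groups. One coding transcript, ENST00000487848, picked out after its values were seen, had 10.2, 32.6 and 100.7 reads in knockout libraries and was listed at 0 in all 3 wild-type libraries. It did not pass the test (adjusted p = 0.141 by edgeR on transcripts), and wild-type replicates 1 and 2 held few GATA2 reads to divide.

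GATA1, the factor that both lineages need, had 0 reads in all 6 libraries, which allows up to 3 reads, or 0.103 to 0.115 CPM per library. This limit covers counting error only. GATA1 (chrX:48786554-48794311, plus strand) is also required in eosinophil development, and its mRNA was not detected in these cells at this depth.

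Of the complex that GATA factors join, the mRNA of LMO2 was abundant and that of TAL1 near 0. LMO2, the adaptor that bridges TAL1 and GATA proteins (chr11:33858576-33892289, minus strand), was the most abundant of the 10 genes per length. It had 5963, 5250 and 6076 reads in knockout libraries, against 6407, 6938 and 5969 in wild-type libraries. The groups overlapped at 140 ± 10.2 TPM in knockout and 146 ± 7.81 TPM in wild-type libraries, and the log2 fold change was -0.14 (SE 0.08, 95% interval -0.34 to 0.06, adjusted p = 0.273). TAL1 (chr1:47216290-47232220, minus strand), the partner that LMO2 binds, had 0, 0 and 3 reads in knockout libraries, against 4, 1 and 4 in wild-type libraries, too few to test. LYL1, the close relative of TAL1, had 93.1, 104.8 and 119.2 CPM in knockout libraries, against 132.1, 104.2 and 131.9 CPM in wild-type libraries (adjusted p = 0.258).

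Of 23 cofactor genes of GATA factors, TAL1 and GFI1B, 22 were tested, 5 were higher and 2 lower, with a median log2 fold change of -0.01. Over all genes tested 11.4% were called higher and 9.72% lower. The same shares stand beside the counts of the lists below, none of which was tested as a set. CBFA2T3 (ETO2), a corepressor of the TAL1 complex, had 117, 111 and 109 CPM in knockout libraries, against 73.2, 86.9 and 78.5 CPM in wild-type libraries, a log2 fold change of 0.50 (adjusted p = 0.011). LDB1, which joins LMO2 complexes across DNA, rose by 0.34 (adjusted p = 0.0131). MYB, the progenitor factor, rose by 0.28 (adjusted p = 0.0204), and CBFA2T2, a relative of ETO2, rose by 0.30 (adjusted p = 0.0213). LMO4, a relative of LMO2, fell by 0.70 on the log2 scale (adjusted p = 0.0236) and, like the other genes outside the naming rule, was picked out after its values were seen. These changes were small beside that of NFE2 and went both ways. Of the 29 called genes that the naming rule takes, which leaves out LMO4 and counts ATF3 and the lists below, 12, 9 and 4 lost the call when knockout replicate 1, 2 or 3 was left out, and 29, 4 and 22 when wild-type replicate 1, 2 or 3 was.

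GFI1B, the repressor of genes of other lineages (chr9:132944000-132991687, plus strand), was near the limit of detection. It had 27.7, 35.1 and 41.0 reads in knockout libraries, against 29.1, 26.4 and 36.5 in wild-type libraries, and the groups overlapped. The log2 fold change was 0.20 (SE 0.25, 95% interval -0.39 to 0.79, adjusted p = 0.603). Its protein-coding transcripts held only 2, 5 and 8 reads in knockout libraries, against 4, 4 and 3 in wild-type libraries. The other reads were given almost all to a non-coding transcript (ENST00000443690, chr9:132944000-132953763) that shares 233 exon bases with TSC1 on the opposite strand. TSC1 held 10774 reads over all libraries and GFI1B 196, and no source used here says if reads were assigned by strand, so these reads are uncertain.

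KLF1, the red cell regulator of globin genes (chr19:12884422-12887199, minus strand), had 0, 0 and 1 reads in knockout libraries, against 1, 2 and 2 in wild-type libraries, and was not tested.

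ITGA2B, the integrin alpha chain of the platelet fibrinogen receptor, rose at a very low level. ITGA2B (ENSG00000005961.18, chr17:44372180-44389505, minus strand) had 49, 40.3 and 27 reads in knockout libraries, against 9.1, 15.6 and 10.8 in wild-type libraries. Every knockout library lay above every wild-type library, as in 22.2% of all genes tested (43.5% where either group may be the higher, 21.4% where knockout is the lower), and by as little as 0.925 against 0.562 CPM. The means were 1.42 ± 0.480 CPM in knockout and 0.429 ± 0.121 CPM in wild-type libraries (SD, n = 3 each). Per length they were 0.691 ± 0.254 TPM in knockout and 0.233 ± 0.0916 TPM in wild-type libraries. The log2 fold change was 1.71 (SE 0.37, 95% interval 0.84 to 2.58, adjusted p = 0.0221 by edgeR; exact permutation p = 0.1). The filter asks for about 10 reads in at least 3 libraries of either group. All 3 knockout libraries and wild-type replicates 2 and 3 reached this, and wild-type replicate 1 (9.1 reads) did not. The wild-type libraries alone would therefore not have passed ITGA2B for testing. The call did not hold without knockout replicate 1 (1.46, adjusted p = 0.0654), knockout replicate 2 (1.69, 0.0566), wild-type replicate 1 (1.55, 0.0988) or wild-type replicate 3 (1.67, 0.0896). It was also lost with an offset for the effective length of its transcripts (1.56, adjusted p = 0.0585).

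The full-length coding transcript ITGA2B-201 had 37.4, 26.5 and 17.8 reads in knockout libraries, against 0, 9.7 and 5.6 in wild-type libraries, a log2 fold change of 2.37 (SE 1.13, adjusted p = 0.405 by edgeR on transcripts). Protein-coding transcripts held 69.4% ± 5.96 of the ITGA2B reads in knockout and 54.7% ± 6.33 in wild-type libraries (exact permutation p = 0.1), from 81.7 reads in all knockout libraries and 19.8 in all wild-type libraries. The remaining reads lay in transcripts with retained introns, 34.6 reads over the knockout libraries and 15.6 over the wild-type libraries. The order of the libraries also differed between the 2 genes that rose. Knockout replicate 3 was highest in NFE2 and lowest of its group in ITGA2B. ITGB3, the beta chain with which ITGA2B forms the receptor, had 0 reads in every library.

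The receptor genes were abundant or moderate and did not pass the test. TFRC, the transferrin receptor that brings in iron (chr3:196027183-196082189, minus strand), had 7099, 7870 and 9548 reads in knockout libraries, against 7315, 9415 and 7285 in wild-type libraries. The groups overlapped, and the log2 fold change was 0.04 (SE 0.11, 95% interval -0.22 to 0.31, adjusted p = 0.81). Its sign changed to -0.05 without knockout replicate 3 and to -0.01 without wild-type replicate 1 or without wild-type replicate 3. EPOR, the erythropoietin receptor (chr19:11377205-11384342, minus strand), had 302, 297 and 474 reads in knockout libraries, against 309, 288 and 341 in wild-type libraries. Only knockout replicate 3 stood above the wild-type range, the log2 fold change was 0.20 (SE 0.18, 95% interval -0.23 to 0.62, adjusted p = 0.46), and it was -0.01 without that library.

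**Figure D3:**
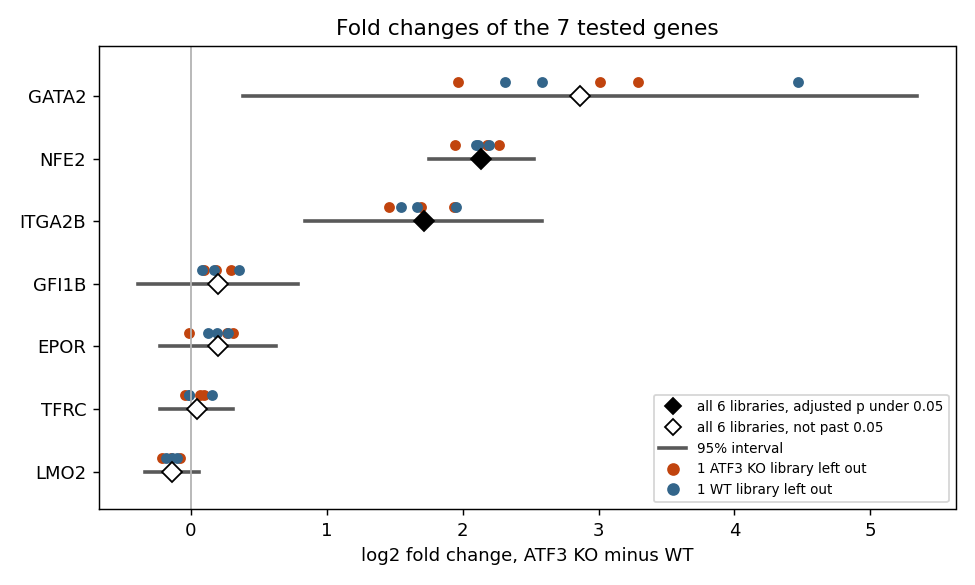
Log2 fold changes, knockout minus wild type, of the 7 tested genes with 95% intervals (bars) and the value with each library left out (dots above). NFE2 stays between 1.94 and 2.27, GATA2 ranges from 1.97 to 4.47, and the intervals of LMO2, TFRC, EPOR and GFI1B include 0.

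Ordered by TPM, the knockout libraries gave LMO2, TFRC, NFE2, GATA2, EPOR, ITGA2B, GFI1B, TAL1, KLF1 and GATA1. The wild-type libraries gave LMO2, TFRC, NFE2, EPOR, GATA2, GFI1B, ITGA2B, KLF1, TAL1 and GATA1. NFE2 thus came next after TFRC in both groups, at 51.7 TPM beside 94.98 TPM for TFRC in knockout libraries, and at 11.3 TPM beside 86.1 TPM for TFRC in wild-type libraries. The ranges of GATA2 and EPOR, of ITGA2B and GFI1B, and of TAL1, KLF1 and GATA1 overlapped between neighbours in knockout libraries. In wild-type libraries those of GATA2 and GFI1B, of GFI1B and ITGA2B, and of KLF1 and TAL1 overlapped.

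Genes further along the megakaryocyte and red cell programmes were mostly at or near 0 reads. Of 28 megakaryocyte and platelet genes, 27 were in the files and 10 were tested, with 2 higher, 1 lower and a median log2 fold change of 0.11. Of the 17 that were not tested, 9 had 0 reads in all libraries, among them the platelet genes PF4, PPBP, GP9, GP1BA and ITGB3. TUBB1, the platelet tubulin that NF-E2 is known to control, had 2, 1 and 1 reads in knockout libraries, against 1, 1 and 0 in wild-type libraries. TBXAS1, thromboxane synthase, another known target, had 47.0, 36.9 and 46.8 CPM in knockout libraries, against 45.9, 46.8 and 30.6 CPM in wild-type libraries (log2 fold change 0.09, adjusted p = 0.767). RAB27B, likewise a known target, had 17, 7 and 1 reads in knockout libraries, against 6, 14 and 9 in wild-type libraries. These 3 targets were singled out with their values known. TBXAS1 did not pass the test, and TUBB1 and RAB27B had too few reads to be tested and so could not be called.

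The called genes of that list are expressed in other blood cells as well. PRKAR2B, a regulatory subunit of protein kinase A, had 21.3, 23.9 and 19.6 CPM in knockout libraries, against 9.26, 11.6 and 9.003 CPM in wild-type libraries, a log2 fold change of 1.12 (adjusted p = 0.0081). F13A1, the A subunit of clotting factor XIII, had 23.9, 8.95 and 3.08 CPM in knockout libraries, against 0.721, 2.32 and 1.71 CPM in wild-type libraries. Its log2 fold change was 2.91 (adjusted p = 0.0401), and 1.92 (adjusted p = 0.0945) without knockout replicate 1. The call was lost in 8 of 13 alternatives, which are limma-voom, the effective length offset, the replicate block and 5 of the 6 that left out a library (all but knockout replicate 3). PLEK, pleckstrin, fell by 0.77 on the log2 scale (adjusted p = 0.0141).

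Of 30 red cell genes, 10 were tested, with 2 higher, 2 lower and a median log2 fold change of 0.07, and 9 had 0 reads in all libraries. HBA1, HBB, AHSP, the chaperone of alpha globin, and ALAS2, the red cell enzyme of haem synthesis, were among the 9, and HBA2 and HBG1 had 1 read each and HBG2 3 reads in a single library. HBA1 and HBA2, and HBG1 and HBG2, are near-identical copies between which reads can be divided wrongly. SLC4A1, the band 3 anion exchanger, stood at 0.731, 0.582 and 0.857 CPM in knockout libraries, against 0.649, 0.562 and 0.875 CPM in wild-type libraries. Of the called genes, UROD, an enzyme of haem synthesis in all cells, had a log2 fold change of 0.73 (adjusted p = 0.0165). XPO7, a nuclear export receptor, had 0.28 (0.0348). SPTB, the beta spectrin of the red cell skeleton, had -1.12 (0.0185), and KLF3, a repressor related to KLF1, -0.41 (0.0254). The XPO7 call was lost in each of the 6 settings that left out a library (adjusted p of 0.0504 to 0.14). Those of UROD, SPTB and KLF3 were lost in 4, 4 and 5 of 13 alternatives.

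Of 16 genes of iron uptake and handling, 2 were higher and 2 lower, with a median log2 fold change of 0.05. NCOA4, the receptor that delivers ferritin for breakdown, had a log2 fold change of 0.42 (adjusted p = 0.0167). ACO1, the iron regulatory protein IRP1, had 0.41 (adjusted p = 0.0281). PCBP2, an iron chaperone, fell by 0.40 on the log2 scale (adjusted p = 0.013), and SLC25A37, mitoferrin, fell by 0.41 (adjusted p = 0.0325). TFR2, the second transferrin receptor, had -0.11 (adjusted p = 0.724), so neither transferrin receptor passed the test.

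Of 15 genes of erythropoietin and thrombopoietin signalling, 3 were higher and 0 lower, with a median log2 fold change of 0.12. The shares over all genes tested were 11.4% higher and 9.72% lower, and nothing particular to this list is read from the count. CBL, a ubiquitin ligase that ends receptor signals, had 158, 157 and 156 CPM in knockout libraries, against 102, 113 and 91.6 CPM in wild-type libraries, a log2 fold change of 0.61 (adjusted p = 0.00932). PTPN6, the phosphatase SHP-1, rose by 0.30 (adjusted p = 0.0318), and STAT5A, which carries the signal to the nucleus, by 0.27 with an adjusted p at the threshold (0.0498). The STAT5A call was lost in 12 of 13 alternatives, each of those that left out a library among them (adjusted p of 0.0623 to 0.166). JAK2, the kinase bound to EPOR, had 38.9, 34.5 and 25.2 CPM in knockout libraries, against 22.5, 25.2 and 25.8 CPM in wild-type libraries, with overlapping groups (adjusted p = 0.101). SOCS2, SOCS1 and CISH, which STAT5 induces, had adjusted p of 0.775, 0.355 and 0.772. SOCS3, another feedback inhibitor, had 10.7, 7.16 and 7.78 CPM in knockout libraries, against 4.79, 5.66 and 5.72 CPM in wild-type libraries, without overlap (log2 fold change 0.66, adjusted p = 0.0501). Every knockout library lay above every wild-type library in 22.2% of all genes tested.

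The marker lists of granulocytes and mast cells were counted in the same fit. Of 13 eosinophil genes 5 were tested, with 3 higher and a median log2 fold change of 1.65, and of 14 neutrophil and monocyte genes 9 were tested, with 5 higher and a median of 1.42. Genes called higher made up 11.4% of all genes tested, and these short lists were not tested as sets. RNASE2, an eosinophil granule ribonuclease, had 93.2, 152 and 150 CPM in knockout libraries, against 29.4, 40.9 and 38.7 CPM in wild-type libraries (log2 fold change 1.86, adjusted p = 0.0081). RNASE3, its paralog, had a log2 fold change of 1.65 (adjusted p = 0.0081), and the eosinophil receptor gene ADGRE1 had 1.52 (adjusted p = 0.0103). ADGRE1 was at a low level, with 42, 51 and 62 reads in knockout libraries, against 19, 18 and 17 in wild-type libraries. The calls of RNASE2 and RNASE3 were lost without wild-type replicate 1, and that of ADGRE1 without wild-type replicate 1 or 3. ITGAM (CD11b), with a log2 fold change of 1.37 (adjusted p = 0.00871), led the neutrophil and monocyte genes by p. MPO, myeloperoxidase, had 1.21 (adjusted p = 0.0145), CSF1R, the macrophage growth factor receptor gene, 1.42 (0.0362) and S100A8, a calprotectin subunit gene, 3.75 (0.0370). The CSF1R call was lost in 6 of 13 alternatives and that of S100A8 in 5. Both had adjusted p of up to 0.126 when a library was left out. The calls of ITGAM and MPO were lost in 1 and 2 of the 13. CTSG, cathepsin G, went the other way without passing the test, with 4.19, 3.60 and 6.58 CPM in knockout libraries, against 9.80, 6.46 and 16.8 CPM in wild-type libraries (log2 fold change -1.20, adjusted p = 0.0679, with overlapping groups). Of 11 mast cell and basophil genes 2 were tested and 0 called, and FCER1A, the alpha chain of the IgE receptor and the most abundant of them, had an adjusted p of 0.42. KIT, the stem cell factor receptor of mast cells and a known target of GATA2, had 0.962, 0.873 and 0.137 CPM in knockout libraries, against 0.360, 0.632 and 0.328 CPM in wild-type libraries.

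**Figure D4:**
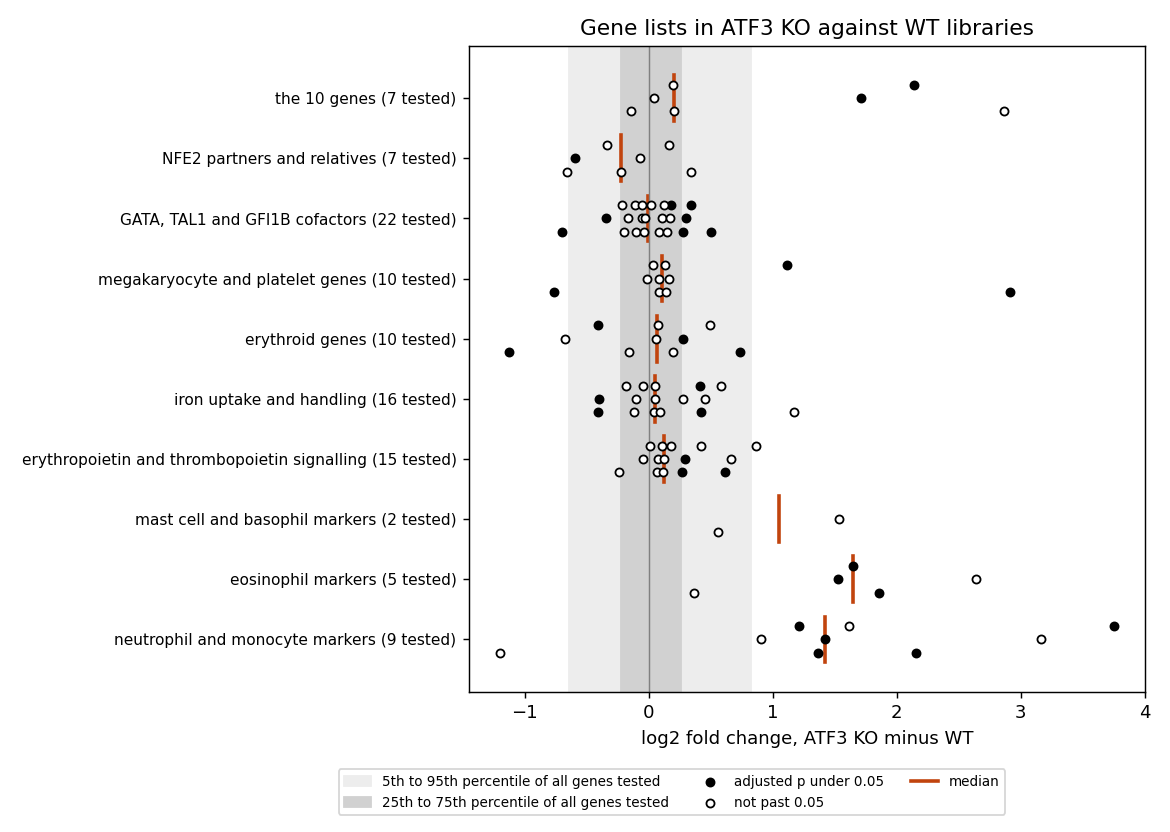
Log2 fold changes, knockout minus wild type, of the tested genes of each list (dots, filled at an adjusted p under 0.05) with the median of the list (bar), over shaded bands for the single genes of the whole test. NFE2 is the dot at 2.14 in the top row, and the list medians run from -0.23 for NFE2 partners and relatives to 1.65 for eosinophil markers.

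The genes whose pattern over the 6 libraries was most like that of NFE2 were RNASE2, FHDC1 and STON1, by the root mean square difference of centred log2 CPM (0.243, 0.286 and 0.289) among 11230 protein-coding genes with a mean of at least 1 CPM. FHDC1, a formin, had 4.81, 6.76 and 6.03 CPM in knockout libraries, against 1.80, 1.97 and 1.68 CPM in wild-type libraries. STON1, an endocytic adaptor, had 8.31, 8.87 and 9.36 CPM in knockout libraries, against 2.85, 3.20 and 2.55 CPM in wild-type libraries. Those most like ITGA2B were RHOC, MS4A4E and GABARAPL1 (0.146, 0.156 and 0.159 among 11231 genes). RHOC, a small GTPase, had 17.1, 14.3 and 11.5 CPM in knockout libraries, against 4.47, 6.57 and 4.96 CPM in wild-type libraries, with the highest knockout library again replicate 1 and the highest wild-type library again replicate 2.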

How the data were processed

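Polyadenylated RNA of 3 knockout and 3 wild-type EoL-1 libraries was sequenced after a stranded library kit, per the labels' protocols. The authors deposited a Salmon table per library with estimated counts and TPM for 177456 transcripts, per the file headers; the submitters' processing notes list Salmon 1.6.0 and FastQC 0.11.9. No source used here gives the strand setting or the transcriptome release. The deposited TPM values were used as levels only. Transcripts were joined to genes with GENCODE 29 (GRCh38): 167027 matched, and the 10429 without a gene (3.59 to 3.82% of reads) stayed out of the gene tests.

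Estimated counts were summed per gene, rounded and tested by the quasi-likelihood test of edgeR 4.0.16 in R 4.3.3 on group alone, with TMM factors, filterByExpr (minimum 10 reads) and Benjamini-Hochberg adjustment over all 13131 genes kept (4 residual degrees of freedom, biological coefficient of variation 16.8%). Transcripts were tested likewise. CPM are TMM-scaled. The p of a single value is from an exact two-sided permutation test. The scripts were tested on simulated data.

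Alternatives were DESeq2 1.42.0 and limma-voom (limma 3.58.1), other scaling factors, no filter, an effective length offset, the replicate number as a block and each library left out. The genes and lists were chosen with earlier results of these data known. The naming rule took all 10 genes, transcripts of NFE2 and ITGA2B with a mean of at least 10 reads in a group, up to 4 called genes per list by p (else the most abundant), the markers that define a lineage and the 3 closest patterns. Other genes named, and transcripts of other genes, were chosen after their values were seen. Intervals of fold changes come from the edgeR fit. Some genes that the rule names are not reported here.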

Additional observations from a re-analysis of the deposited data

How the results depend on the processing

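Over 38 results and 488 alternative values, 383 kept their direction and side of the threshold, 99 kept the direction and lost it, 2 gained it and 4 changed sign. NFE2 lost its call only without wild-type replicate 1 and ranged from 1.94 to 2.27 when a library was left out. ITGA2B ranged from 1.46 to 1.95 and lost its call in 4 of these 6 settings and with the effective length offset (1.56). TFRC ranged from -0.046 to 0.16 and turned to -0.015 without wild-type replicate 1 and -0.010 without wild-type replicate 3, and EPOR ranged from -0.012 to 0.31. Deviations of same-numbered libraries correlated at -0.09, 0.11 and 0.20, and those of differently numbered libraries at -0.24 to 0.17. These values do not settle whether the replicate number pairs the samples. With the number as a block, NFE2 had 2.12 (adjusted p = 0.0119), ITGA2B 1.69 (0.0407) and GATA2 3.11 (0.0429, its only call), and 1225 genes were higher and 1093 lower. The effective length offset gave 722 higher and 661 lower genes, DESeq2 1828 and 1726, and leaving out a library 0 to 1370 higher and 0 to 1388 lower. Upper-quartile factors gave 1314 higher and 1410 lower. Without wild-type replicate 1 no gene was called (3496 at an unadjusted p under 0.05), and without wild-type replicate 3 there were 210 higher and 148 lower. The NFE2-202 transcript had 2.17 by DESeq2, its only call, and 2.00 to 2.31 by edgeR with a library left out. The causes were not tested. DESeq2 and limma-voom on transcripts were added after the data were seen. Members under about 10 reads in a library are limited by depth.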
